A study of Mus musculus with 4 samples.

Results

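The 10 genes described here encode the actin regulators of the Ena/VASP family (*Enah*, *Evl* and *Vasp*), the WAVE proteins (*Wasf1*, *Wasf2* and *Wasf3*), their partners *Abi1*, *Abi2* and *Nckap1*, and cortactin (*Cttn*). They were chosen by name, with earlier results of these data known. All 10 were found among the 23038 genes for which levels were given in this mRNA-SEQ series. By gene identifier, 49 of the 38240 alternative splicing events belonged to them. RNA of mouse cortex at E14.5 was compared between 2 control embryos (*Qk* fl/fl, labelled wild type) and 2 *Qk* cKO embryos (*Nestin-cre*:*Qk* fl/fl), described as littermates. All 4 embryos therefore carried the floxed *Qk* alleles, and the knockouts also carried Cre recombinase, driven by *Nestin* regulatory sequence in neural progenitor cells, which removes exon 2 of *Qk*. The labels call the samples of each group independent replicates, and the strain was not given in the sources used here. The comparison asks how loss of *Qk*, which encodes the splicing regulator Qki, affects the level and the splicing of these transcripts.

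Ena/VASP proteins sit at the growing ends of actin filaments, where they favour elongation and protect the ends from capping. WAVE proteins are held in a complex with Abi, Nckap1, Cyfip and Brk1 proteins and, when the GTPase Rac acts on this complex, switch on the Arp2/3 complex, which starts new filament branches. Cortactin binds Arp2/3 and stabilizes the branches. In the developing cortex these proteins are known for their roles in lamellipodia, filopodia, neurite outgrowth and axon tracts.

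The sequences below carry the splicing differences described further on. They were read from annotated transcripts of GENCODE release M21 on GRCm38, the build also called mm10, and each is written in the sense of the gene. The first shows *Evl* exon 10, the intron of 86 nt that follows it and the cassette exon of 63 nt, at chr12:108683195-108683410 on the plus strand, with the cassette exon in capitals. In the next lines the microexons of *Nckap1* (chr2:80571213-80571230, minus strand), *Abi1* (chr2:22963214-22963228, minus strand) and *Abi2* (chr1:60438942-60438959, plus strand) stand in capitals between 30 bases of the spliced transcript on each side. The last line shows the inner 3′ splice site of *Enah* (chr1:181921739-181921798, minus strand), where capitals mark the start of the shorter exon form.
Evl exon 10, intron and cassette exon: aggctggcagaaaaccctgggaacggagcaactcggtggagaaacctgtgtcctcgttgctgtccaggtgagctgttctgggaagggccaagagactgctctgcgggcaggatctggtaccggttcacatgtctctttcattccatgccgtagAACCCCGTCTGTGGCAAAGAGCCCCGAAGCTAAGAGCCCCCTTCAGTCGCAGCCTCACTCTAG
Nckap1 microexon: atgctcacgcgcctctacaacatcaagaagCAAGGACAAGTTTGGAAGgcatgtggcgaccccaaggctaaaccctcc
Abi1 microexon: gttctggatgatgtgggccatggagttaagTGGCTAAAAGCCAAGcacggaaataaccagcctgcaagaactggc
Abi2 microexon: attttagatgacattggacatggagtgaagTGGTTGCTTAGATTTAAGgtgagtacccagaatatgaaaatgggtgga
Enah inner 3′ splice site: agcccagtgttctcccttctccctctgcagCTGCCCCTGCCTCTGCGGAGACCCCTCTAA

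The files held between 37942046 and 42994832 tags per sample, a tag being the unit that the quantification program Quantas counted. Per 100 tags on the junction of *Qk* exons 3 and 4, there were 111 and 129 tags on the junction of exons 2 and 3 in control and 7.02 and 8.19 in *Qk* cKO, so the libraries matched their labels. The level of *Qk* over the whole gene was called higher in *Qk* cKO. It was 21.1 and 21.7 RPKM in control and 32.5 and 34.2 RPKM in *Qk* cKO (log2 fold change of 0.65). Markers of cortical neurons summed to 1188 and 1230 RPKM in control and 1185 and 1132 RPKM in *Qk* cKO, and none was called. *Tubb3* made up most of these sums, with 765 and 833 RPKM in control and 779 and 676 RPKM in *Qk* cKO. *Dcx* and *Map2* lay higher in both knockout samples. *Dcx* had 66.4 and 70.8 RPKM in control and 71.2 and 80.4 RPKM in *Qk* cKO. *Map2* had 110 and 118 RPKM in control and 120 and 124 RPKM in *Qk* cKO. For *Tubb3*, *Neurod6*, *Tbr1* and *Neurod2* the groups overlapped. The median log2 fold change of the 6 neuron markers was 0.074. The 7 radial glia markers summed to 1622 and 1502 RPKM in control and 1318 and 1255 RPKM in *Qk* cKO, and 2 of them were called lower. *Fabp7* made up most of that difference, with 989 and 901 RPKM in control and 703 and 667 RPKM in *Qk* cKO, and *Slc1a3* had 18.5 and 18.4 RPKM in control and 15.8 and 15.5 RPKM in *Qk* cKO. *Pax6* lay slightly higher in both knockout samples, with 37.5 and 36.8 RPKM in control and 39.03 and 38.7 RPKM in *Qk* cKO, and was not called. *Sox2* and *Hes5*, also not called, lay lower in both knockout samples. *Sox2* had 23.5 and 26.3 RPKM in control and 19.8 and 20.4 RPKM in *Qk* cKO. *Hes5* had 15.6 and 15.9 RPKM in control and 13.9 and 13.6 RPKM in *Qk* cKO. For *Vim* and *Nes* the groups overlapped. Of 7 hypothalamic and diencephalic markers, 6 were called lower, with sums of 11.1 and 16.8 RPKM in control and 8.21 and 7.95 RPKM in *Qk* cKO for the 7. *Nkx2-1*, not called, was the largest part of these sums, with 6.79 and 7.26 RPKM in control and 5.94 and 6.31 RPKM in *Qk* cKO. Of the called markers, *Nr5a1*, *Six6*, *Sox14* and *Nkx2-2* stayed below 1 RPKM in every sample. All 6 were higher in control 2 than in control 1, and *Sox14* had 9 and 70 tags in the controls and 4 and 1 in the knockouts. Markers were called higher in 2 lists. The red blood cell list summed to 781 and 793 RPKM in control and 1130 and 839.7 RPKM in *Qk* cKO, with the globin gene *Hbb-bs* called, and in the epithelial list *Krt19* was called, with 0 tags in both controls and 18 and 39 in the knockouts. None of the 11 marker lists had a member at 0 in every sample. The part of these differences in the results below was not tested, and in RNA of whole tissue fewer cells of a type and less RNA per cell cannot be told apart.

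None of the 10 genes was called as changed in steady-state level. Levels are given as RPKM (tags scaled to transcript length and library depth) and were tested on tags with edgeR's quasi-likelihood test over all 18834 genes with at least 1 tag. A gene was called at p below 0.01 and a Benjamini-Hochberg FDR below 0.1. By this rule 0.584% of all genes tested and 0 of the 10 genes were called, and the lowest adjusted p of the 10 in edgeR was 0.709. Neither this edgeR fit nor DESeq2 gave any of the 10 an unadjusted p below 0.05, against 8.76% of all genes in edgeR. Their log2 fold changes, *Qk* cKO over control, lay between -0.11 and 0.12, with a median of -0.025 against -0.0025 for all genes tested. The standard errors ran from 0.063 to 0.108.

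**Figure D1:**
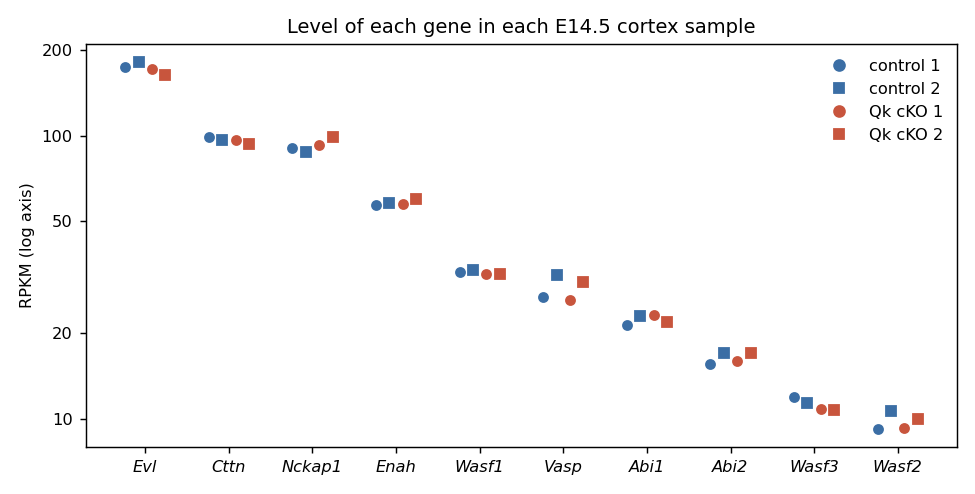
RPKM of the 10 genes on a log axis in each of the 4 samples (blue, control; red, *Qk* cKO; circle, replicate 1; square, replicate 2), ordered by mean level. *Evl* stood highest at 164 to 182 RPKM and *Wasf2* lowest at 9.23 to 10.7 RPKM, and within each gene the samples of both groups lay close together.

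Among the Ena/VASP genes, *Evl* was by far the most abundant. It had 174 and 182 RPKM in control and 172 and 164 RPKM in *Qk* cKO. Both knockout samples lay below both controls, but the log2 fold change of -0.069 ± 0.076 (SE) was smaller than its error (edgeR adjusted p = 0.859). *Enah*, which encodes Mena, had 56.9 and 57.6 RPKM in control and 57.3 and 59.8 RPKM in *Qk* cKO, with overlapping groups. *Vasp*, the founding member of the family, had 26.8 and 32.2 RPKM in control and 26.2 and 30.5 RPKM in *Qk* cKO. The gap between its replicates was larger than that between the groups.

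The WAVE genes were ordered *Wasf1*, *Wasf3* and *Wasf2*, and their 4-sample ranges did not overlap. *Wasf1*, the WAVE protein most typical of brain, had 33.0 and 33.5 RPKM in control and 32.5 and 32.3 RPKM in *Qk* cKO. *Wasf3* had 11.96 and 11.4 RPKM in control and 10.8 and 10.7 RPKM in *Qk* cKO, the lowest fold change of the 10 genes at -0.11 ± 0.108 on the log2 scale (edgeR adjusted p = 0.855). For *Wasf1* and *Wasf3* both knockout samples were below both controls, whereas the groups overlapped for *Wasf2*, with 9.23 and 10.7 RPKM in control and 9.27 and 10.01 RPKM in *Qk* cKO.

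*Nckap1*, the scaffold subunit that holds the WAVE complex together with Cyfip, showed the highest fold change. It had 90.3 and 87.5 RPKM in control and 92.8 and 98.9 RPKM in *Qk* cKO, with no overlap between groups. Its log2 fold change was 0.12 ± 0.073 (edgeR adjusted p = 0.709). The Abi adaptors were lower and did not separate by genotype. *Abi1* had 21.4 and 23.1 RPKM in control and 23.2 and 21.9 RPKM in *Qk* cKO. *Abi2* had 15.6 and 17.1 RPKM in control and 15.9 and 17.1 RPKM in *Qk* cKO. *Cttn* had 99.2 and 96.2 RPKM in control and 96.4 and 93.4 RPKM in *Qk* cKO, again overlapping. Over the 4 samples, *Cttn* and *Nckap1* were the only neighbours in the order of the 10 genes whose ranges overlapped. Groups did not overlap for 4 of the 10 genes and for 36.9% of all genes tested.

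**Figure D2:**
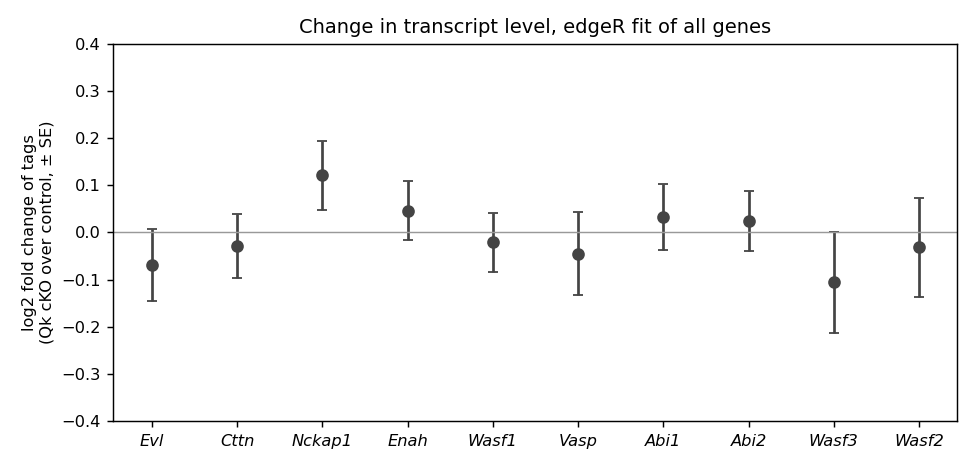
Log2 fold change of tags, *Qk* cKO over control, for the 10 genes in the order of their level (points; bars, standard error of the edgeR fit). The points lie between -0.11 for *Wasf3* and 0.12 for *Nckap1*.

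Splicing events were called by Fisher's exact test in 4 of the 10 genes, *Evl*, *Nckap1*, *Abi1* and *Enah*, and by edgeR's interaction test in *Evl*. Inclusion is the fraction of junction tags that supports the form with the exon, the longer form or the retained intron. Where a form has 2 junctions or intron ends, the mean of their tags entered this fraction. The difference Δ*I* was taken as control minus knockout, so a positive Δ*I* means lower inclusion in the knockout. An event was tested by Fisher's exact test on isoform tags summed over replicates if its coverage was at least 20. Isoform tags, which edgeR's interaction test used as well, can include tags within an exon beside junction tags. The p-values and Δ*I* therefore do not rest on the same counts. Coverage is the least of 4 sums, namely the junction tags of either form over both groups and those of either group over both forms. An event was called at p below 0.01 and an FDR below 0.1 within its event type. Of the 49 events, 25 in 8 genes were tested and 6 were called, which is 24.0% of those tested, beside 7.5% of all 11500 tested events. Lower inclusion in *Qk* cKO was called in 4, beside 3.53% of all, and higher inclusion in 2, beside 3.97% of all. The 10 genes were chosen with earlier results of these data known, so the shares in this paragraph do not show an excess of calls. The median coverage was 146 tags in the 25 events and 65.8 tags in all tested events. Fisher's exact test treats every tag as a separate draw and ignores how much embryos vary, so edgeR's interaction test (isoform by genotype), which estimates that variation, is given beside each called event whose values are printed. It called 2 of the 25 events, both in *Evl*, beside 0.557% of all tested events. The median absolute Δ*I* was 0.0481 in the 25 events and 0.0256 in all tested events. An absolute Δ*I* of at least 0.1 was found in 4 of the 25 and in 11.4% of all, and together with a call in 4 of the 25 and in 3.3% of all. Of the 6 calls, 3 concern a single stretch of *Evl* and share tags, so the calls cover 4 regions.

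**Figure D3:**
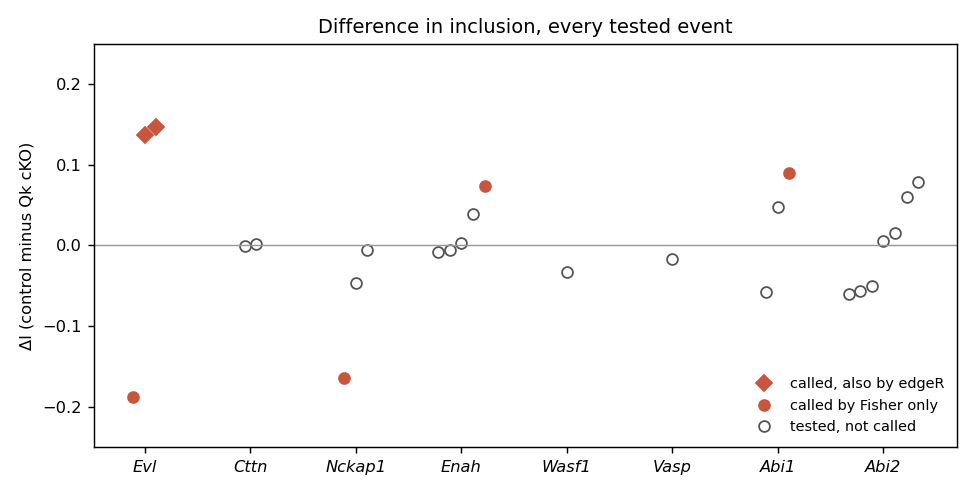
Δ*I* (inclusion in control minus *Qk* cKO) of the 25 tested events by gene. Filled symbols mark events called by Fisher's exact test, diamonds those that edgeR's interaction test called as well, and open circles those not called. The called events of *Evl* and *Nckap1* lie beyond 0.1 in either direction, and those of *Abi1* and *Enah* between 0.07 and 0.1.

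The largest loss was that of the cassette exon of *Evl*. This exon of 63 nt is exon 11 of transcript Evl-201 and lies at chr12:108683348-108683410, between an intron of 86 nt and one of 2639 nt. It adds 21 codons after codon 339 of a coding sequence of 414 codons, in the C-terminal EVH2 region through which Ena/VASP proteins bind filaments and form tetramers. Of the annotated transcripts that span it, 3 include it and 2 skip it. The inclusion was 0.231 and 0.161 in the controls and 0.0492 and 0.0535 in *Qk* cKO. Both knockout samples lay far below both controls, which also differed from each other beyond their Wilson intervals (0.211 to 0.252 and 0.143 to 0.182). The Δ*I* was 0.147, with an adjusted p of 6.08e-87 in Fisher's exact test and 0.00951 in edgeR's interaction test. Both junctions of the exon showed the loss. The upstream junction carried 393 and 239 tags in control and 90.1 and 90.1 in *Qk* cKO, and the downstream junction 321 and 210.7 tags in control and 72.2 and 74.8 in *Qk* cKO. Tags on the junction that skips the exon numbered 1190 and 1169 in control and 1569 and 1457 in *Qk* cKO.

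The intron of 86 nt before this exon, at chr12:108683262-108683347, can remain in the RNA, so that exon 10, the intron and the cassette exon form a joint exon of 216 nt, as in transcript Evl-205, which is annotated as a retained intron. The intron begins with GT and ends with AG in the sequence above. With the intron kept, the reading frame meets TGA at its base 2. The inclusion of this intron, relative to its removal before the cassette exon, was 0.144 and 0.195 in control and 0.346 and 0.358 in *Qk* cKO. Both knockout values lay above both controls (Δ*I* of -0.188, adjusted p = 2.41e-12 in Fisher's exact test), whereas edgeR's interaction test did not call it (adjusted p = 0.683). The alternative 5′ splice site event of *Evl* compares the downstream junction of the cassette exon with the skipping junction. Its inclusion was 0.212 and 0.153 in control and 0.0440 and 0.0488 in *Qk* cKO. Both of these junctions also count towards the cassette exon, so the event is no separate measurement (Δ*I* of 0.138, adjusted p = 4.44e-80 in Fisher's exact test and 0.00416 in edgeR's interaction test).

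Since these events share tags, the tags at the 5′ splice site of exon 10 were also divided into the 3 ways on from it. Skipping took 72.3% and 80.0% of tags in control and 92.2% and 91.3% in *Qk* cKO. Spliced inclusion of the cassette exon took 23.9% and 16.4% in control and 5.30% and 5.64% in *Qk* cKO. Retention of the intron took 3.82% and 3.59% in control and 2.48% and 3.05% in *Qk* cKO. The groups did not overlap in any of the 3 shares. The retained intron thus took a larger share relative to its spliced counterpart, while as a share of all tags at this site it was lower in both knockout samples, 2.76% ± 0.407 against 3.70% ± 0.163 (SD, n = 2). The Wilson interval of the retained share was 2.75% to 4.67% in control replicate 2 and 2.32% to 4.02% in *Qk* cKO replicate 2, the closest pair of samples, and the difference in this share was not tested.

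**Figure D4:**
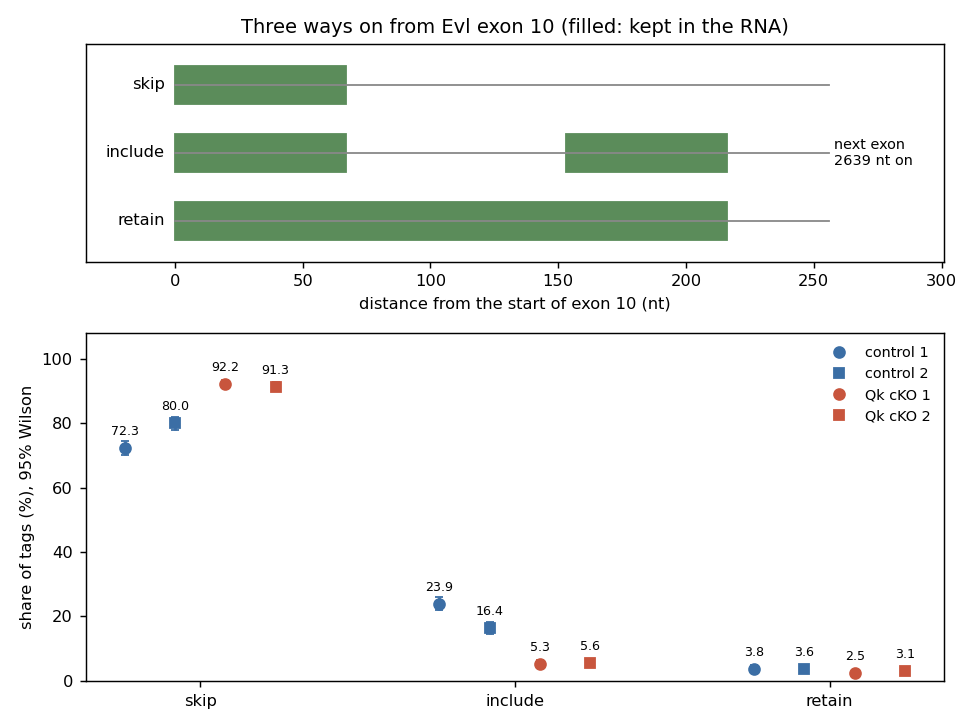
Top, the 3 forms of *Evl* RNA after exon 10, drawn to scale in nt from the start of exon 10 (filled boxes, kept in the RNA; lines, removed). Bottom, share of tags at the 5′ splice site of exon 10 for each form and sample, in percent, with 95% Wilson intervals. Skipping stands at 72.3% and 80.0% in control and at 92.2% and 91.3% in *Qk* cKO, and spliced inclusion at 23.9% and 16.4% against 5.30% and 5.64%.

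The microexon of *Nckap1* moved the other way. It has 18 nt and is exon 2 of an annotated coding transcript, between introns of 9627 nt and 983 nt. It adds 6 codons after codon 36, near the start of the protein. The inclusion was 0.160 and 0.159 in control and 0.312 and 0.333 in *Qk* cKO. The replicates lay close together and the groups well apart (Δ*I* of -0.164, adjusted p = 4.26e-04 in Fisher's exact test). In edgeR's interaction test the event was not called (adjusted p = 0.224). The upstream junction carried 20 and 18 tags in control and 46 and 57 in *Qk* cKO, and the downstream junction 27 and 21 tags in control and 54 and 69 in *Qk* cKO. The skipping junction carried 123 and 103 tags in control and 110 and 126 in *Qk* cKO, with overlapping groups. Of the other tested events of *Nckap1*, an alternative 3′ splice site 6 nt apart had an inclusion of 0.678 and 0.671 in control and 0.735 and 0.708 in *Qk* cKO (adjusted p = 0.525 in Fisher's exact test). A retained intron of 79 nt stayed at or below 0.0270 in every sample.

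**Figure D5:**
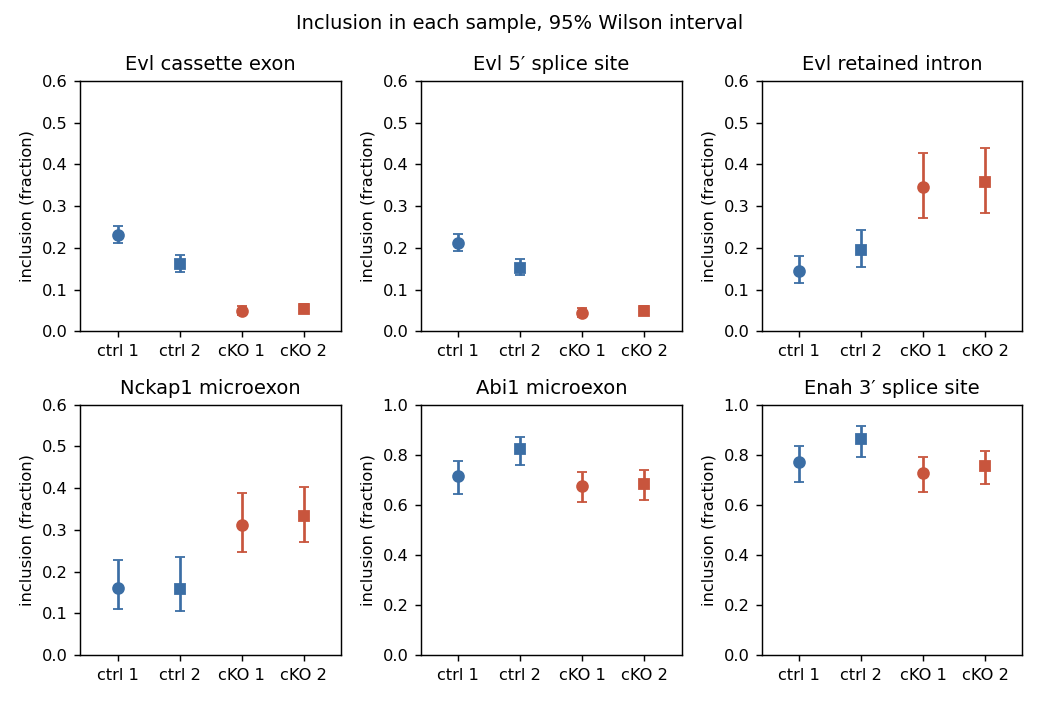
Inclusion, as a fraction, of the 6 called events in each sample (blue, control; red, *Qk* cKO) with 95% Wilson intervals, which cover counting error only. The inclusion axis ends at 0.6 in the *Evl* and *Nckap1* panels and at 1 in the *Abi1* and *Enah* panels. The intervals of control and *Qk* cKO are apart in the *Evl* and *Nckap1* panels, whereas in the *Abi1* and *Enah* panels that of control replicate 1 overlaps both knockout intervals.

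*Abi1* and *Abi2* encode the adaptor that links WAVE to its complex and to kinases. Both genes have a microexon that follows codon 154 in the annotated coding sequence. The bases TGG open both microexons in the sequences above. The *Abi1* microexon of 15 nt is included in 6 annotated transcripts and skipped in 4. Its inclusion was 0.714 and 0.823 in control and 0.675 and 0.682 in *Qk* cKO. Both knockout samples lay below both controls (Δ*I* of 0.0901, adjusted p = 0.0563 in Fisher's exact test), but the controls were further apart from each other than control replicate 1 was from either knockout. EdgeR's interaction test did not call it (adjusted p = 0.594). Without control replicate 2 the Δ*I* was 0.0357 and the adjusted p of Fisher's exact test 0.701, and the call was lost as well without either knockout sample (adjusted p = 0.166 without replicate 1 and 0.137 without replicate 2). The *Abi2* microexon of 18 nt had an inclusion of 0.638 and 0.716 in control and 0.7502 and 0.714 in *Qk* cKO, so the groups overlapped (Δ*I* of -0.057, adjusted p = 0.517 in Fisher's exact test). The difference between the microexons of *Abi1* and *Abi2* in Δ*I* was not tested.

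Further downstream, both Abi genes have a cassette exon of 87 nt, and 73.6% of the bases of these exons were the same between the genes when aligned without gaps. The *Abi2* exon had the highest coverage among the tested events of that gene. Its inclusion was 0.276 and 0.391 in control and 0.305 and 0.342 in *Qk* cKO, with overlapping groups (Δ*I* of 0.0151, adjusted p = 0.945 in Fisher's exact test). The *Abi1* exon had 0.430 and 0.481 in control and 0.4004 and 0.417 in *Qk* cKO, without overlap but not called (adjusted p = 0.456 in Fisher's exact test). No event of *Abi2* was called. The smallest p among its 7 tested events belonged to the intron of 1709 nt before the microexon, whose inclusion was 0.0213 and 0.0593 in control and 0.0870 and 0.0934 in *Qk* cKO (p = 0.0131, adjusted p = 0.162 in Fisher's exact test).

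In *Enah*, an alternative 3′ splice site decides between an exon of 843 nt and one of 111 nt, which share their 3′ end. The 732 nt between the sites are 244 codons long and in frame, and a large insert of this kind is known from the brain form of Mena. The long exon lies at chr1:181921658-181922500 and the short one at chr1:181921658-181921768, and the inner site is printed above. The fraction with the long exon was 0.770 and 0.864 in control and 0.726 and 0.756 in *Qk* cKO. Both knockout samples lay below both controls, again with a gap between the controls (Δ*I* of 0.0737, adjusted p = 0.0817 in Fisher's exact test). EdgeR's interaction test did not call it (adjusted p = 0.632). Without control replicate 2 the Δ*I* was 0.0299 with an adjusted p of 0.754 in Fisher's exact test. The junction into the long form carried 104 and 102 tags in control and 111 and 116 in *Qk* cKO, and the junction into the short form 31 and 16 tags in control and 42 and 37.4 in *Qk* cKO. On junction tags alone the adjusted p of Fisher's exact test was 0.290, and the call was also lost without *Qk* cKO replicate 1 (0.297) or replicate 2 (0.174).

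The small cassette exons of *Enah* were rare in this tissue. The exon of 63 nt, the length of the exon named 11a that epithelial cells include, had an inclusion of 0.0119 and 0.0216 in control and 0.0111 and 0.0340 in *Qk* cKO. The exon of 57 nt, the length of the exon of the invasive form of Mena, had 0.0395 and 0.0483 in control and 0.0373 and 0.0443 in *Qk* cKO. The exon of 12 nt had 0.0641 and 0.102 in control and 0.0924 and 0.0875 in *Qk* cKO. Groups overlapped in each, and none was called. The epithelial splicing regulators *Esrp1* and *Esrp2* did not exceed 0.0093 and 0.045 RPKM in any sample.

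The other genes had few measurable events, and none was called. In *Vasp*, an alternative 3′ splice site 3 nt apart had an inclusion of 0.869 and 0.877 in control and 0.919 and 0.860 in *Qk* cKO (adjusted p = 0.839 in Fisher's exact test). In *Wasf1*, a similar site 3 nt apart had 0.889 and 0.854 in control and 0.895 and 0.914 in *Qk* cKO (adjusted p = 0.473 in Fisher's exact test). In *Cttn*, a cassette exon of 85 nt, the tested event with the highest coverage, had 0.0163 and 0.0289 in control and 0.0218 and 0.0176 in *Qk* cKO. A *Cttn* exon of 70 nt was included at 0.980 to 0.992 in every sample, and the exon of 111 nt did not reach the coverage minimum. The events of *Wasf2* and *Wasf3* did not reach it either, so their splicing was not tested. Over the 25 tested events, inclusion was lower in *Qk* cKO in 12 and higher in 13. Groups did not overlap in 14 of the 25, including the 6 called events, and in 37.9% of all tested events.

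The partners of these proteins were examined as 6 lists with 56 genes. In level, 0 of the 56 were called by edgeR or by DESeq2. An unadjusted p below 0.05 was found for 5 in edgeR, beside 8.76% of all genes tested. In DESeq2 it was found for 4, beside 1009 of all 18834 genes tested. The median log2 fold change of the 56 genes was 0.033. Among the 5 remaining members of the WAVE complex, *Cyfip1*, which binds Rac, had the smallest p, with 14.9 and 14.9 RPKM in control and 16.1 and 16.9 RPKM in *Qk* cKO (log2 fold change of 0.16 ± 0.052, edgeR adjusted p = 0.285). Among 10 Arp2/3 genes this was *Actr2*, with 38.4 and 38.4 RPKM in control and 40.02 and 40.9 RPKM in *Qk* cKO (edgeR adjusted p = 0.71). *Dbnl*, which encodes the actin-binding protein mAbp1, led the 10 other nucleation-promoting factors and cortactin relatives, with 58.1 and 59.3 RPKM in control and 52.7 and 52.2 RPKM in *Qk* cKO (log2 fold change of -0.15 ± 0.052, edgeR adjusted p = 0.335).

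Of the 10 genes that recruit Ena/VASP proteins or belong with zyxin, *Tes*, which binds Mena, had the smallest p, with 11.6 and 10.4 RPKM in control and 12.8 and 13.4 RPKM in *Qk* cKO (edgeR adjusted p = 0.477). Of the 8 genes of Rac and Cdc42 and their activators and effectors, this was the GTPase gene *Rac3*, with 65.7 and 70.4 RPKM in control and 60.6 and 55.7 RPKM in *Qk* cKO (log2 fold change of -0.21 ± 0.076, edgeR adjusted p = 0.35). Of the 13 genes for capping, severing and formins, it was the formin gene *Fmnl2*, with 33.9 and 32.9 RPKM in control and 35.3 and 36.4 RPKM in *Qk* cKO (edgeR adjusted p = 0.561). In all of these genes the groups did not overlap, and none was called. Groups did not overlap for 36.9% of all genes tested. The named genes were picked for the smallest p in their lists, which favours separated groups. Their separation therefore does not describe the lists as a whole.

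Splicing of the partners was called in 7 of 33 tested events, in 5 genes, by Fisher's exact test, which is 21.2% beside 7.5% of all tested events. The lists too were chosen with earlier results of these data known, so this share does not show an excess of calls. EdgeR's interaction test called 0 of the 33, and 7 had an unadjusted p below 0.05 in it, beside 7.17% of all tested events. The largest difference was in *Cyfip1*, the WAVE complex subunit that binds next to Nckap1. In a pair of mutually exclusive exons, the fraction with the upstream exon was 0.452 and 0.489 in control and 0.700 and 0.739 in *Qk* cKO (Δ*I* of -0.251, adjusted p = 3.04e-07 in Fisher's exact test and 0.174 in edgeR's interaction test). A *Cyfip1* cassette exon of 154 nt in the same stretch had 0.427 and 0.419 in control and 0.234 and 0.225 in *Qk* cKO (adjusted p = 6.17e-06 in Fisher's exact test and 0.147 in edgeR's interaction test), and the pair of events shares tags. The formin gene *Fmnl2* had 2 called cassette exons with the same flanking exons. The more changed, of 126 nt, had an inclusion of 0.631 and 0.588 in control and 0.721 and 0.733 in *Qk* cKO (adjusted p = 0.00187 in Fisher's exact test and 0.335 in edgeR's interaction test).

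Smaller differences were called in *Spire1* and *Cfl1*. A 174-nt exon of *Spire1*, which encodes a filament nucleator that works with formins, had 0.0385 and 0.0671 in control and 0.0193 and 0.0188 in *Qk* cKO (adjusted p = 0.0294 in Fisher's exact test and 0.366 in edgeR's interaction test). An intron of *Cfl1*, which encodes the severing protein cofilin, had 0.00524 and 0.0059 in control and 0.00838 and 0.0104 in *Qk* cKO (adjusted p = 0.00122 in Fisher's exact test and 0.683 in edgeR's interaction test). No event was called among the 3 tested in Arp2/3 genes, the 3 in other nucleation-promoting factors and cortactin relatives, and the 5 in Ena/VASP recruiters and the zyxin family.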

How the data were processed

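Libraries were made from poly(A)-selected RNA of E14.5 cortices, 2 samples per group. The reads were aligned to mm10 and to exon junctions by OLego, and Quantas turned the alignments into values. The gene files deposited by the authors hold an estimated count of tags and an RPKM per gene, and the event files hold estimated counts of tags per isoform and per junction. Depth ranged from 37942046 to 42994832 tags per sample.

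Rounded tags per gene were scaled by TMM, and genes with at least 1 tag were tested by quasi-likelihood in edgeR 4.0.16 under R 4.3.3. The standard error was calculated from the F statistic. Events were tested with the two-sided Fisher's exact test (scipy 1.17.1) on rounded sums of the isoform tags of both replicates, with a coverage of at least 20 and Benjamini-Hochberg adjustment within event type. Wilson intervals (95%) cover counting error only. Alternatives were DESeq2 1.42.0, other scaling, filters and tests, and the replicate number as a block. Further ones were other coverage minimums, junction tags only, adjustment over all types, the mean of the replicates' inclusion and each sample left out.

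The 10 genes and all lists were chosen with earlier results of these data known. Named were all 10 genes, their called events, the tested event with the highest coverage in genes without a call, the called partners or the one with the smallest p in each list, and partners with called events. Of the latter, 1 is not reported here. The other events of *Enah*, *Abi1*, *Abi2*, *Nckap1*, *Cttn* and *Wasf3* and the *Esrp* genes were named after their values were seen. Of 108 list symbols, 7 were found under another name by gene identifier and 1 was not found. Exon positions were matched to GENCODE M21. No genome sequence was used here, so introns were not searched for the Qki motif ACTAAC, except the retained *Evl* intron. That intron does not hold these letters on the sense strand, nor do the *Evl* cassette exon and the *Nckap1*, *Abi1* and *Abi2* microexons. The other exons were not searched.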

Additional observations from a re-analysis of the deposited data

How the results depend on the processing

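None of the 10 genes was called in level under any of the 10 alternatives run, all 4 left-out samples included (lowest and highest count 0). In the edgeR fit with the replicate block, *Nckap1* had an unadjusted p of 0.0414 (adjusted p = 0.507). With a sample left out, the fold changes of *Vasp*, *Wasf2*, *Abi1*, *Abi2* and *Cttn* took either sign. Over all genes, 110 calls became 11 with filterByExpr, 10 with a mean RPKM of at least 1, 57 with edgeR's exact test, 192 with the replicate block, and 0 (without control replicate 2; 966 had an unadjusted p below 0.05 in edgeR), 11 (without control replicate 1), 68 (without *Qk* cKO replicate 2) or 428 (without *Qk* cKO replicate 1). A left-out sample leaves 1 in its group, assumed to vary like the others.

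Of the events of the 10 genes, 6 were called by Fisher's exact test, 2 by edgeR's interaction test and 4 to 6 with a sample left out. Over all events, 862 calls became 503 on junction tags only, 64 with edgeR's interaction test and 488 without control replicate 1. The *Evl* cassette exon and 5′ splice site were called under all 11 alternatives, and the *Evl* intron and the *Nckap1* microexon under all but edgeR's interaction test. The *Abi1* microexon was called under 7 and the *Enah* splice site under 5 of 11. Among the 11, the alternative with the mean of the replicates' inclusion recomputed only Δ*I* and kept the main p-values. It therefore could not lose a call, and its calls are no separate check. At a coverage of at least 10, a pair of mutually exclusive *Wasf3* exons was called as well (adjusted p = 0.0236 in Fisher's exact test), with 19, 10, 4 and 4 tags for the rarer exon in control 1, control 2, *Qk* cKO 1 and *Qk* cKO 2.

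The embryos were described as littermates, but the labels give only replicate numbers and do not say which samples share a litter. The numbers were therefore not taken as pairs. Deviations of same-numbered samples correlated at 0.303 over 12928 genes, and at -0.0807 when only autosomal genes were kept. With 2 samples per group, neither value can show whether same-numbered embryos share a litter. Embryo sex was not included in any test. With the replicate block (Cochran-Mantel-Haenszel test), 5 events of the 10 genes and 739 of all events were called, and the *Enah* splice site was lost (adjusted p = 0.107 in that test). With 2 samples per group, the standard errors of the 10 log2 fold changes were 0.063 to 0.108, and the events below the coverage minimum, all those of *Wasf2* and *Wasf3* among them, were not tested.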
